A study of Mus musculus with 6 samples.

Results

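The tumour suppressor p53, encoded by *Trp53*, was examined together with 6 genes whose products hold it in check, in activated B cells that lacked the RNA-binding protein hnRNPL. The 7 genes were taken by name from the 55421 rows of the expression table, and all 7 were among the 17640 genes abundant enough to test. They were *Trp53* itself, the ubiquitin ligase genes *Mdm2* and *Rchy1*, the *Mdm2* homologue *Mdm4*, the deubiquitinase gene *Usp7*, the phosphatase gene *Ppm1d* and the cyclin G1 gene *Ccng1*. Splenic B cells were activated in culture for 24 h with 5 μg/ml LPS plus IL-4 at 5 ng/ml, and poly(A) RNA of GFP+ cells was sequenced, with 1 library for each of 3 WT and 3 hnRNPL-deficient replicates. WT cells had the genotype CD21-cre, hnRNPL-deficient cells were in addition hnRNPL F/F, and a *Rosa* mT/mG Cre reporter was present in both groups. The Cre is driven by *CD21* (*Cr2*) regulatory sequence, which is active in mature B cells, and GFP marks cells in which Cre acted on the reporter rather than on *Hnrnpl* itself. Mice were on the C57BL6/J background, older than 6 weeks and of either sex.

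In unstressed cells p53 is made continuously and destroyed quickly, because MDM2 tags it with ubiquitin for the proteasome. MDM4 lacks strong ligase activity of its own, but pairs with MDM2 and blocks the p53 activation domain. When p53 is stabilised, it switches on *Mdm2*, *Ccng1*, *Ppm1d* and *Rchy1*, and their products bring p53 down again. This is the negative feedback loop. Most of the control of p53 is exerted on the protein, which RNA-seq does not measure. In lymphocytes the pathway guards dividing cells against damaged DNA and can halt the cell cycle or trigger apoptosis.

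The promoters of the 7 genes were first searched for the DNA element that p53 binds. The element searched was the full 20-base p53 consensus, made of a pair of decamers with no spacer. The core C and G bases had to be intact, and at most 2 mismatches were accepted elsewhere. The consensus is its own reverse complement, both strands were scanned, and no other motif was searched. All 7 genes had at least 1 RefSeq promoter window (GRCm38.p6, 250 bases before to 50 bases after a start site). Of the 7, *Ccng1* had a match, and in the other 6 genes these letters were not in the window. Over all genes, 106 of 27025 (0.392%) had a match, in 107 of 32851 windows (0.326%). Among 29 known p53 targets outside the loop, 20 had a window and *Cdkn1a*, the gene of the CDK inhibitor p21, held a match. The matches in *Ccng1* (chr11:40755457-40755486, minus strand) and *Cdkn1a* (chr17:29090923-29090952, plus strand) are shown with 5 flanking bases on each side, which these coordinates include. They are written 5′ to 3′ on the strand of the gene, and the capitals mark the 20 bases that match. The site began 195 bases before the start site in *Ccng1* and 51 bases before one in *Cdkn1a*, and each had 1 mismatch. A window at another start site of *Cdkn1a* held no match.
Ccng1: aggccAGACCTGCCCGGGCAAGCCTtggca
Cdkn1a: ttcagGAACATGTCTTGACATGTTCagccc
A match describes the letters only and does not show that p53 was bound there. The p53 element long known to drive *Mdm2* lies in its first intron, outside the window searched.

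Expression was measured as the normalized count, that is, the number of reads on a gene divided by a size factor of the library. Between 40395186 and 75180749 reads fell on genes per library, and hnRNPL-deficient replicate 3 was the shallowest. The smallest number of reads behind any value of these 7 genes was 1048, for *Rchy1* in WT replicate 1. *Hnrnpl* fell to 6.74% of the WT mean, with 24174 to 25579.7 normalized counts in WT and 1297 to 2178 in hnRNPL-deficient libraries. Differences were tested with limma on log2(normalized count + 1), and a gene was called when its Benjamini-Hochberg adjusted p over all tested genes was under 0.1 and its change at least 1.5-fold. By this rule 1284 genes (7.28%) were higher and 719 (4.08%) were lower in hnRNPL-deficient cells, and without WT replicate 3 these were 830 and 478. The study describes the replicates as separate mice, so the p-values rest on the spread between animals. The sorted cells carried B cell transcripts, with 271886 to 355972 normalized counts summed over 7 B cell markers. One of these, *Cr2*, was called higher (log2 fold change 0.85, adjusted p = 0.0444 from limma), but not without WT replicate 2, WT replicate 3 or hnRNPL-deficient replicate 3 (adjusted p = 0.126, 0.145 and 0.11 from limma). T cell and NK cell markers summed to at most 11.7 and 4.11, and erythroid markers to 5.19 to 17.4 in WT and 15.3 to 25.2 in hnRNPL-deficient libraries. The 3 plasma cell markers summed to 1640 to 1838 and 1389 to 1907, and among them *Jchain* was called lower (84.1 ± 50.4 to 14.7 ± 8.23, SD, n = 3 each; log2 fold change -2.31, adjusted p = 0.0509 from limma). That call was lost without WT replicate 1 or 2 or hnRNPL-deficient replicate 2 or 3 (adjusted p between 0.11 and 0.15 from limma), and the part of these markers in the results for the 7 genes was not tested. The 6 myeloid markers summed to 260 to 331 in WT and 1239 to 1382 in hnRNPL-deficient libraries. Nearly all of this was *Adgre1*, which rose from 278 ± 39.9 to 1308 ± 80.1 (SD, n = 3 each; log2 fold change 2.24, standard error 0.148, adjusted p = 1.39e-04 from limma), while *Csf1r* and *Lyz2* reached at most 6.85 and 2.02 and *S100a8* and *S100a9* were at 0 in every library. *Xist* was at 98507 in WT replicate 3 and at 98219 in hnRNPL-deficient replicate 2, and at most 7.21 elsewhere.

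Of the 7 genes, *Ccng1* and *Mdm2* were called higher and none was called lower by limma, edgeR or DESeq2, that is 2 of 7 against 7.28% of all tested genes called higher by limma. The edgeR and DESeq2 fits left out hnRNPL-deficient replicate 2. At an unadjusted p under 0.05 in limma, 4 of the 7 were higher and 0 lower, against 14.4% and 12.9% of all tested genes. *Trp53* had a lower mean in hnRNPL-deficient cells and the 6 regulators had higher means, whereas 47.3% of all tested genes had a higher mean. The median log2 fold change of the 7 genes was 0.31, and that of all tested genes was -0.03. WT and hnRNPL-deficient values did not overlap for 4 of the 7 genes, *Mdm2*, *Ccng1*, *Rchy1* and *Usp7*, against 34.0% of all tested genes, or 17.7% when higher values alone are counted. Since the 7 genes were chosen with results of these data known, these counts are a description.

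**Figure D1:**
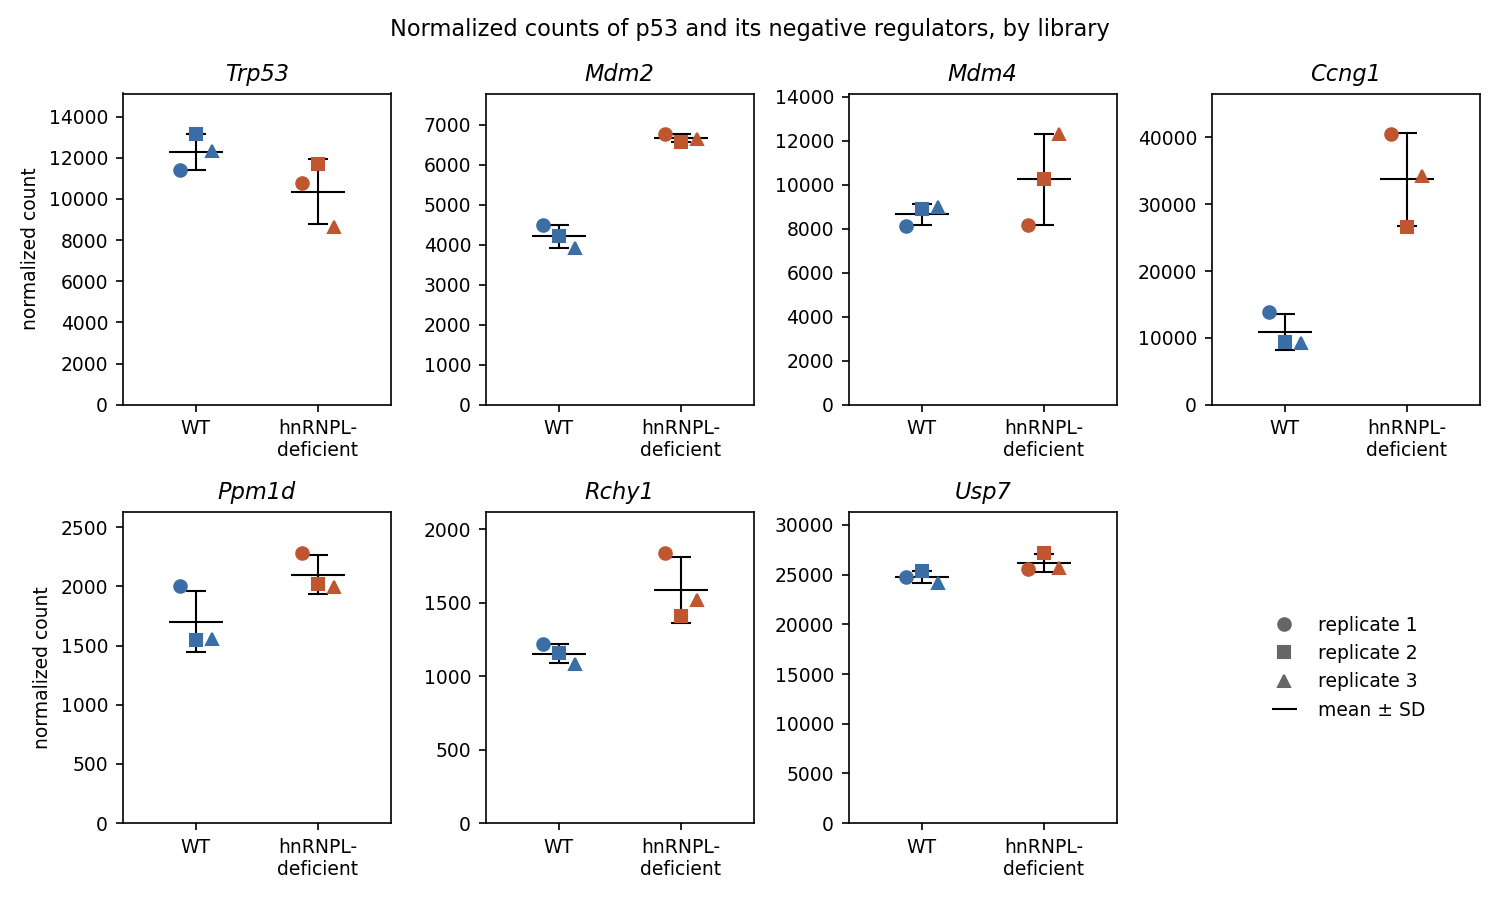
Normalized counts (vertical axes, each starting at 0) of the 7 genes in the 3 WT (blue) and 3 hnRNPL-deficient (orange) libraries; marker shapes give the replicate, horizontal lines the mean and bars the SD. The groups are apart for *Mdm2* and *Ccng1*, apart by a small margin for *Rchy1* and *Usp7*, and overlap for *Trp53*, *Mdm4* and *Ppm1d*.

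*Trp53* (ENSMUSG00000059552.13, chromosome 11, 69580359 to 69591873 on the plus strand of GRCm38) had 11390.4, 13146 and 12314 normalized counts in WT replicates 1 to 3. In hnRNPL-deficient replicates 1 to 3 it had 10765, 11668 and 8619. The groups overlapped, since hnRNPL-deficient replicate 2 lay above WT replicate 1, and the lowest value was that of hnRNPL-deficient replicate 3. The log2 fold change was -0.26 (standard error 0.128, 95% interval -0.55 to 0.04, adjusted p = 0.237 from limma). On the linear scale the interval ran from 0.684- to 1.02-fold, so in this fit a rise of *Trp53* mRNA above 1.02-fold lay outside it. Intervals of the other fits were not computed. Without hnRNPL-deficient replicate 3 the log2 fold change was -0.13 (standard error 0.102), and with quantile normalization it was also -0.13 (standard error 0.127). Over all 17 other fits the adjusted p of *Trp53* ranged from 0.0945 (limma, replicate number as a block) to 0.537 (limma, quantile normalization).

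*Mdm2* (ENSMUSG00000020184.15, chromosome 10, 117688875 to 117710758, minus strand), the main p53 ligase and itself a p53 target, had 4487, 4218 and 3910.1 normalized counts in WT replicates. It reached 6762, 6562 and 6638 in the hnRNPL-deficient replicates. Every hnRNPL-deficient library was thus above every WT library, and the lowest of them was 1.46 times the highest WT value. The 3 hnRNPL-deficient values were close together, with a coefficient of variation of 1.52%, against 6.86% in WT. *Mdm2* rose by a log2 fold change of 0.66 (standard error 0.0918, 95% interval 0.45 to 0.87, adjusted p = 0.00374 from limma), a 1.58-fold change that ranked 1881st from the top among tested genes. The call was kept with each library left out in turn, with adjusted p-values between 0.00564 and 0.0262 from limma.

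*Mdm4* (ENSMUSG00000054387.13, chromosome 1, 132959484 to 133030561, minus strand), which inhibits p53 in partnership with MDM2, behaved less uniformly. WT replicates had 8119, 8879.6 and 8990.2 normalized counts, with a coefficient of variation of 5.48%, and hnRNPL-deficient replicates had 8189.6, 10238 and 12302, with one of 20.1%. Replicate 1 of the hnRNPL-deficient group lay within the WT values, and replicates 2 and 3 lay above them. The log2 fold change was 0.22 (standard error 0.145, 95% interval -0.11 to 0.55, adjusted p = 0.361 from limma). It was 0.08 without hnRNPL-deficient replicate 3 and 0.37 without hnRNPL-deficient replicate 1, so single libraries set its size. hnRNPL-deficient replicate 3, the shallowest library, held both the highest *Mdm4* and the lowest *Trp53* value, and a link between the 2 was not tested. Some other genes also had an extreme in that library, such as *Cop1* at 6645 (highest) and *Rpl11* at 16975.5 (lowest), while others, such as *Mdm2*, did not. GENCODE lists 14 transcripts of *Mdm4*, of which 5 are coding and 2 are marked for nonsense-mediated decay. Values per gene sum over all of them, so they do not give the amount of mRNA for full-length MDM4.

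*Ccng1* (ENSMUSG00000020326.7, chromosome 11, 40748552 to 40755311, minus strand) encodes cyclin G1, which recruits the phosphatase PP2A to MDM2 and thereby favours its action on p53. It had 13909.9, 9424 and 9269 normalized counts in WT and 40509.9, 26602 and 34206 in hnRNPL-deficient replicates. The lowest hnRNPL-deficient value was 1.91 times the highest WT value, and replicate 1 was the highest within each group. *Ccng1* rose by a log2 fold change of 1.64 (standard error 0.196, 95% interval 1.19 to 2.09, adjusted p = 0.00214 from limma). This 3.12-fold change ranked 336th from the top among all tested genes. It was also among the most abundant of them, at the 97.9th percentile of mean normalized count. *Ccng1* was called in each of the 6 fits that left out 1 library, with an adjusted p of at most 0.0151 from limma.

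*Ppm1d* (ENSMUSG00000020525.17, chromosome 11, 85311244 to 85347066, plus strand) encodes WIP1, a phosphatase that removes activating phosphates from p53 and from its upstream kinases. Its 3 WT libraries had 2004, 1547 and 1557 normalized counts and its 3 hnRNPL-deficient libraries 2285, 2016 and 1992. A single WT library, replicate 1, reached into the hnRNPL-deficient range, at 2004 against a lowest hnRNPL-deficient value of 1992. The log2 fold change of *Ppm1d*, 0.31 (standard error 0.132, adjusted p = 0.172 from limma), did not pass. Without WT replicate 1 it was 0.43 with an adjusted p of 0.0569 from limma, still under the 1.5-fold minimum, and over all 17 other fits the adjusted p ranged from 0.0441 to 0.399.

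*Rchy1* (ENSMUSG00000029397.15, chromosome 5, 91948904 to 91963068, minus strand) encodes PIRH2, a p53 ligase that works separately from MDM2. It had 1216, 1159 and 1084 normalized counts in WT and 1841, 1406 and 1519 in hnRNPL-deficient replicates, without overlap. The log2 fold change was 0.45 (standard error 0.13, 95% interval 0.16 to 0.75, adjusted p = 0.0578 from limma), below 1.5-fold, so *Rchy1* was not called although its adjusted p was under 0.1, as it was for 18.0% of tested genes in either direction and for 10.0% with a higher mean. Its adjusted p stayed under 0.1 in 3 of the 6 fits that left out 1 library, and over all 17 other fits it ranged from 0.0064 to 0.185, the latter without WT replicate 3.

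*Usp7* (ENSMUSG00000022710.17, chromosome 16, 8689595 to 8792308, minus strand) encodes a deubiquitinase that stabilises MDM2 and can also remove ubiquitin from p53. Of the 7 genes it varied least among WT replicates (coefficient of variation 2.32%), with 24799, 25322 and 24176 normalized counts in WT and 25580.4, 27213 and 25654 in hnRNPL-deficient replicates. The groups did not overlap, but the lowest hnRNPL-deficient value was only 1.01 times the highest WT value. The log2 fold change was 0.08 (standard error 0.088, 95% interval -0.12 to 0.28, adjusted p = 0.604 from limma). A change of *Usp7* beyond 1.21-fold upward or below 0.919-fold lay outside the interval.

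**Figure D2:**
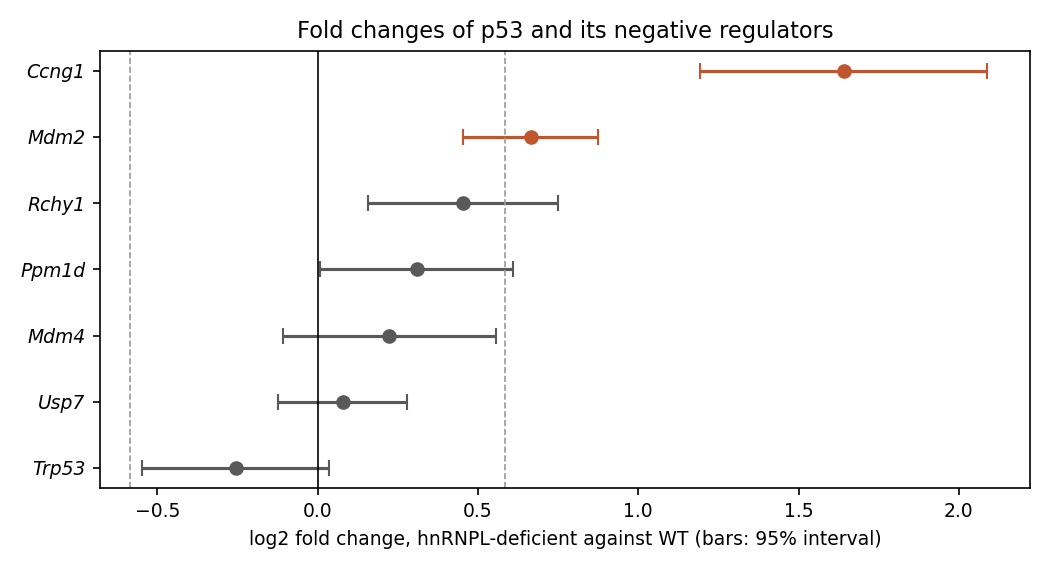
Log2 fold change of each gene, hnRNPL-deficient against WT (horizontal axis), with its 95% interval from limma (bars); orange marks called genes, grey genes that were not called, the solid line no change and the dashed lines a 1.5-fold change. The intervals of *Ccng1*, *Mdm2*, *Rchy1* and *Ppm1d* lie above 0, and those of *Mdm4*, *Usp7* and *Trp53* include 0.

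Levels of different genes were compared per kilobase of annotated exon. In WT cells *Usp7*, *Ccng1* and *Trp53* were the most abundant, at 3189 ± 73.9, 3094 ± 751 and 3037 ± 217 normalized counts per kilobase (SD, n = 3), and their ranges over libraries overlapped. *Mdm2* followed at 827 ± 56.7, above the range of *Mdm4* at 585 ± 32.1. *Mdm4* and *Ppm1d* (537 ± 82.3) overlapped, and *Rchy1* was lowest at 306 ± 17.5. In hnRNPL-deficient cells *Ccng1* stood first at 9616 ± 1983 per kilobase. *Usp7* was next at 3367 ± 119, above the range of *Trp53* at 2559 ± 387, and then came *Mdm2* at 1309 ± 19.8. *Mdm4* (692 ± 139) and *Ppm1d* (661 ± 51.2) again overlapped, and *Rchy1* stayed lowest at 421 ± 59.8. This order depended on the length used. Divided by the longest coding transcript instead, *Trp53* led in WT at 6579 ± 470.3 per kilobase, ahead of *Usp7* at 5219 ± 121 and *Ccng1* at 3094 ± 751. *Mdm2* (1337 ± 91.7) and *Mdm4* (1219 ± 66.8) were then closer in WT. In hnRNPL-deficient cells *Trp53* (5544 ± 839) was then no longer below *Usp7* (5511 ± 194), nor *Rchy1* (808 ± 115) below *Ppm1d* (724 ± 56.0).

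Ratios between genes of the same library do not depend on how libraries were scaled, and 3 of them were compared between the groups. The ratio of *Mdm2* to *Trp53* normalized counts was 0.394, 0.321 and 0.318 in WT replicates and 0.628, 0.562 and 0.770 in hnRNPL-deficient replicates. Every hnRNPL-deficient library thus had more *Mdm2* for each unit of *Trp53* than any WT library, by 1.89-fold on average (log2 difference 0.92, standard error 0.167). The ratio of *Ccng1* to *Mdm2* was 3.10, 2.23 and 2.37 in WT and 5.99, 4.05 and 5.15 in hnRNPL-deficient replicates, again without overlap (log2 difference 0.98, standard error 0.219). The ratio of *Mdm2* to *Mdm4* was 0.553, 0.475 and 0.435 in WT and 0.826, 0.641 and 0.540 in hnRNPL-deficient replicates. Its groups overlapped, because hnRNPL-deficient replicate 3 fell below WT replicate 1 (log2 difference 0.44, standard error 0.205). By a two-sided exact permutation test, p was 0.1 for *Mdm2* to *Trp53* and for *Ccng1* to *Mdm2* and 0.2 for *Mdm2* to *Mdm4* (0.15, 0.15 and 0.2 after adjustment over the 3 ratios). With 3 libraries in each group 0.1 is the smallest p this exact test can give.

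**Figure D3:**
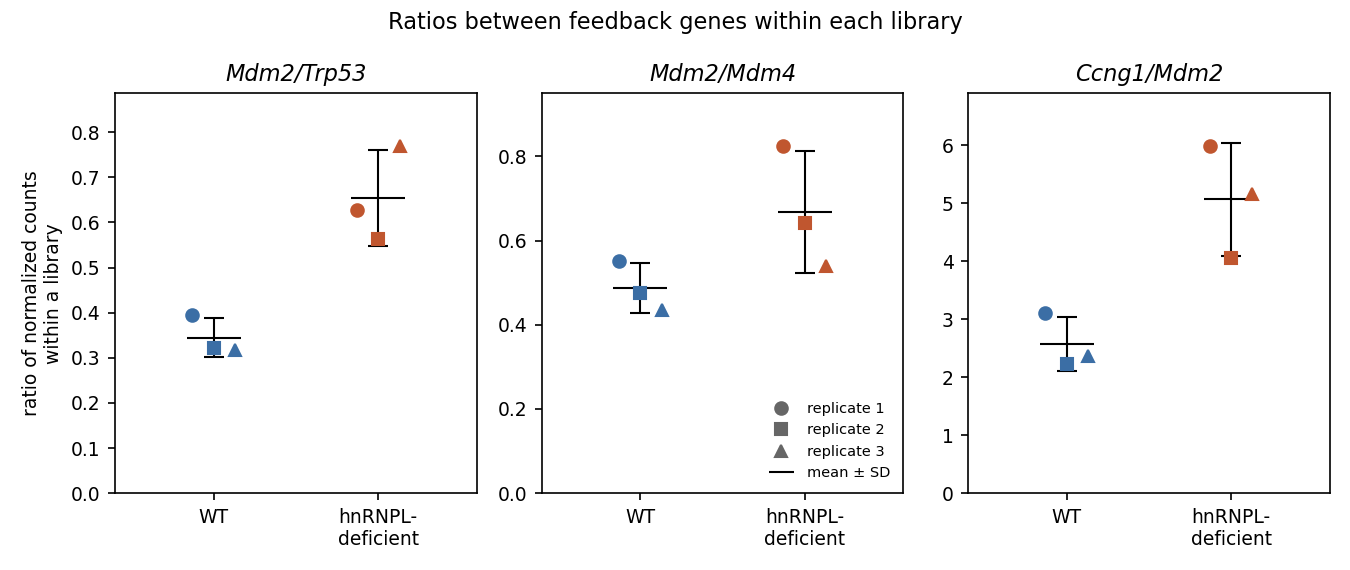
Ratio of the normalized counts of a pair of genes within each library (vertical axes, starting at 0) for WT (blue) and hnRNPL-deficient (orange) replicates; lines and bars give the mean and SD. *Mdm2/Trp53* and *Ccng1/Mdm2* separate the groups, and *Mdm2/Mdm4* does not because hnRNPL-deficient replicate 3 lies at 0.540, under WT replicate 1 at 0.553.

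The rest of the p53 circuit was described from lists of genes by role. Of 36 other regulators of p53, all of them tested, 4 were called lower and none higher by limma, against 4.08% and 7.28% of all tested genes. At an unadjusted p under 0.05 in limma, 2 of the 36 were higher and 9 lower, against the same 14.4% and 12.9% of all tested genes, and edgeR and DESeq2 called none higher and 3 and 4 lower. Their median log2 fold change was -0.15. None of 10 other ligases and deubiquitinases that act on p53 was called by any of the 3 tools, and 2 of the 10 were lower at an unadjusted p under 0.05 in limma, against 12.9% of all tested genes. *Atm*, the kinase that signals DNA double-strand breaks to p53, fell from 21764 ± 2735 to 13902 ± 344 normalized counts (SD, n = 3 each; log2 fold change -0.64, standard error 0.109, adjusted p = 0.0088 from limma). *Chek1*, a checkpoint kinase of replication stress, fell from 2841 ± 590.0 to 1786 ± 290.2 (-0.66, standard error 0.171, adjusted p = 0.0419). The acetyltransferase *Crebbp*, a p53 coactivator, fell from 30249.6 ± 891 to 15265 ± 1786 (-0.99, standard error 0.109, adjusted p = 0.00148), and *Sirt1*, which deacetylates p53, was also called lower (-1.19). Without WT replicate 1 the lower calls were 2, *Crebbp* and *Sirt1*, since the log2 fold changes of *Atm* (-0.54) and *Chek1* (-0.50) were then under 1.5-fold. *Chek1* was also not called without hnRNPL-deficient replicate 2 or 3 (adjusted p = 0.105 and 0.115 from limma). Of 17 other fits, *Crebbp* and *Sirt1* were called in all 17, *Atm* in 14 and *Chek1* in 12. Of 8 genes whose products inhibit MDM2, none was called by the 3 tools, and at an unadjusted p under 0.05 in limma 1 of the 8 was higher and 1 lower, against 14.4% and 12.9% of all tested genes. *Cdkn2a*, which encodes the MDM2 inhibitor p19ARF besides p16INK4a, was scarce, with 17.4, 5.19 and 7.65 normalized counts in WT and 32.5, 21.2 and 20.6 in hnRNPL-deficient replicates, and was not called (log2 fold change 1.34, adjusted p = 0.112 from limma), although it was without WT replicate 1 (1.78, adjusted p = 0.0416). Over its 16 other fits the adjusted p of *Cdkn2a* ranged from 0.0384 to 0.273. The p53 relatives *Trp63* and *Trp73* were too low to test.

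Of 29 p53 targets outside the feedback loop, 26 were tested, 17 were called higher, none was called lower by limma, edgeR or DESeq2 and 9 were not called, against 7.28% of all tested genes called higher. None of the 26 was lower at an unadjusted p under 0.05 in limma, against 12.9% of all tested genes. The median log2 fold change was 0.91. Several of them, *Cdkn1a* among others, were singled out by the study on these same libraries, so the list is not independent evidence of its direction. The largest changes in the list were those of *Trp53cor1*, *Phlda3*, *Plk2* and *Psrc1*. *Trp53cor1*, the gene of the noncoding RNA lincRNA-p21, had 0, 13.8 and 8.41 normalized counts in WT and 316, 339 and 458 in hnRNPL-deficient replicates. *Phlda3*, which restrains AKT, rose from 62.4 ± 16.7 to 1326 ± 78.8 normalized counts (SD, n = 3 each; log2 fold change 4.42, adjusted p = 3.18e-05 from limma). *Plk2*, a polo-like kinase gene, rose from 35.8 ± 10.4 to 589.6 ± 58.5 (4.03, adjusted p = 8.05e-05), and *Psrc1*, a gene of a mitotic spindle protein, from 110.3 ± 14.0 to 1455 ± 135 (3.71, adjusted p = 2.11e-05). The rises of *Ccng1* (1.64) and *Mdm2* (0.66) on the same log2 scale lay above and below the median of this list.

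**Figure D4:**
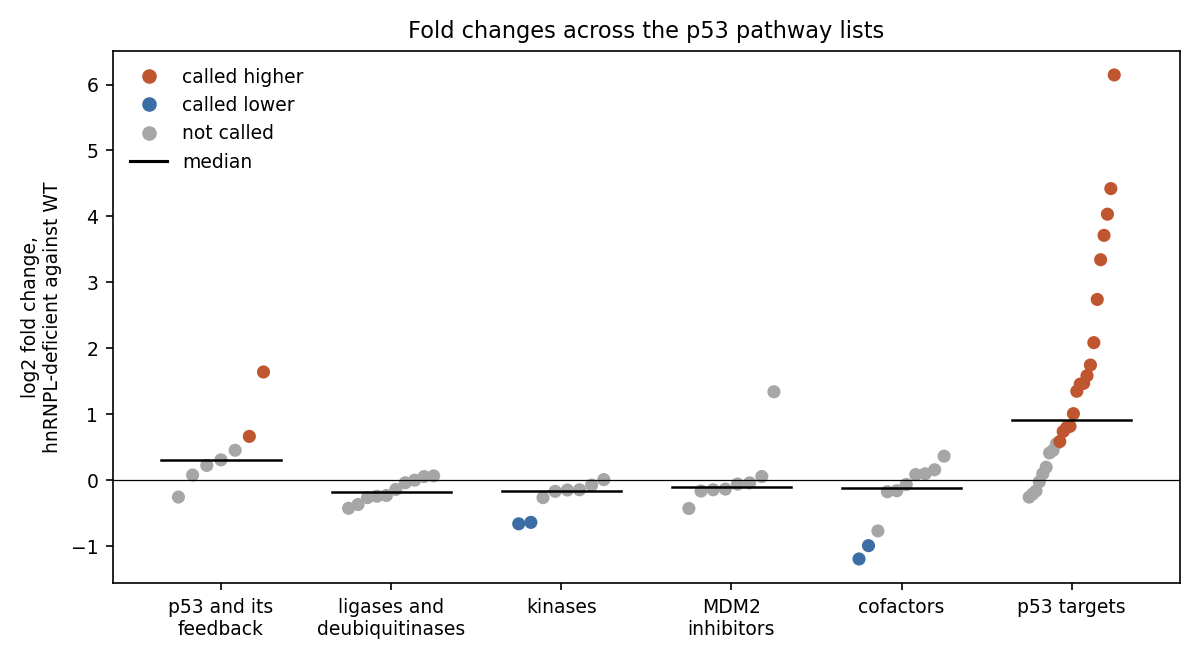
Log2 fold change, hnRNPL-deficient against WT (vertical axis), of each tested gene in the feedback loop and in 5 lists of other p53 pathway genes; colours give the call and black lines the median. The medians of the 4 regulator lists lie between -0.19 and -0.10 and that of the p53 targets at 0.91; the grey point at 1.34 is *Cdkn2a*.

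To place 3 of the genes among the rest, the genes with the most similar profile were found for *Trp53*, *Mdm2* and *Ccng1*. Likeness was the root mean square difference of log2 values over the 6 libraries, each gene centred on its WT mean, among 10151 candidate genes, predicted Gm and Rik models left out, whose mean normalized count was 100 or more. *Trp53* was closest to *Srsf9* (0.0184), *Itpa* (0.02) and *Phb* (0.0295), none of which was called. *Mdm2* was closest to *Apaf1* (0.0301), the apoptosome scaffold gene, then to *Pqlc3* (0.0419) and *Cdc42ep3* (0.0499). *Apaf1* rose from 2206 ± 213 to 3456 ± 95.3 normalized counts (SD, n = 3 each; log2 fold change 0.65, adjusted p = 0.00685 from limma). *Ccng1* was closest to *Apbb2* (0.0975), *Ddit4* (0.119) and *Il6* (0.139), at larger distances than those of the other 2 genes. *Ddit4*, an inhibitor of mTORC1 signaling, rose from 523 ± 89.4 to 1528 ± 182 (1.55, adjusted p = 0.00105 from limma). In cells sorted and sequenced in bulk, a larger share of expressing cells and more RNA in each cell cannot be told apart, for these or any of the genes above.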

How the data were processed

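RNA-seq of 3 WT and 3 hnRNPL-deficient libraries was used. The authors trimmed reads with fastp 0.23.1, aligned them to mm10 with STAR 2.7.9a, counted them per gene with strand-specific featureCounts (GENCODE M23) and scaled each library by its DESeq2 size factor. The normalized counts so deposited are a signal and were used here. The authors' own comparison in the same table (deposited log2 fold changes, standard errors and test statistics, each a score, and p-values) was not used.

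Genes averaging 10 normalized counts or more were tested with limma 3.58.1 (R 4.3.3), with a trended prior variance, after adding 1 and taking log2. All values came out as whole reads within 0.001. For the alternatives edgeR 4.0.16 and DESeq2 1.42.0, reads of 5 libraries entered. Left out was hnRNPL-deficient replicate 2, because 1 read in it is worth 1.01, near 1, although its values too came out as whole reads. Positions and exon lengths came from GENCODE M21 on GRCm38 and promoters from RefSeq. The fits were checked on simulated data with known 2-fold and 4-fold changes. Every simulated gene was given the same dispersion, and fewer genes were changed than were called in the real libraries. The counts from the simulation therefore need not hold for the real libraries. There limma used all simulated libraries, while edgeR and DESeq2 again used 5, so the tools were not compared alike. Of 97 simulated 2-fold changes limma, edgeR and DESeq2 called 77, 70 and 64, with 12, 19 and 16 false calls. Each called 96 of the 4-fold changes. Smaller changes, such as that of *Mdm2*, were not simulated.

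The members and lists were chosen with earlier results of these data known. Named genes were the 7 members, *Hnrnpl*, the called genes of each list (the 4 largest changes among the targets) and the 3 nearest profiles of *Trp53*, *Mdm2* and *Ccng1*; *Cdkn2a*, *Cdkn1a*, *Xist* and the marker genes named were picked after their values were seen. Alternatives were pseudocounts of 0.5 and 5, no filter or a minimum mean of 50, equal totals, quantile normalization, no trend, the replicate number as a block, *Xist* as a covariate, each library left out, other thresholds, edgeR and DESeq2.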

Additional observations from a re-analysis of the deposited data

How the results depend on the processing

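*Ccng1* and *Mdm2* were called higher under all 17 other fits, and the other 5 genes under none of them. No gene changed sign, and the log2 fold change of *Trp53* lay between -0.35 and -0.13. *Rchy1* (0.45) passes in the main fit where no minimum fold is asked. The adjusted p of *Rchy1*, *Ppm1d* and *Trp53* was under 0.1 in 13, 3 and 1 of the 17 other fits. Without 1 library, 830 to 1111 genes were called higher and 478 to 696 lower. With thresholds of 0.05 and 2-fold these were 610 and 216. At those thresholds *Ccng1* (log2 fold change 1.64, adjusted p = 0.00214 from limma) was still called and *Mdm2* (0.66) was not. The 17 called p53 targets stayed within 1.5 times that number throughout. Of the 36 other regulators, 1 (*Cdkn2a*) was called higher with equal totals, with the replicate block and without WT replicate 1, so 0 to 1 when 1 library was left out. From 2 to 4 were called lower without 1 library, and 1 at the stricter thresholds. The cause was not tested.

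Deviations of same-numbered libraries from their group means correlated at 0.429, 0.32 and 0.0663 across genes. The sample titles name no pairing, so the main fit was unpaired, and whether the libraries are paired was not settled. With the replicate block 1755 genes were called higher and 1018 lower, against 1284 and 719, and the 2 called members were the same. Each hnRNPL-deficient library, and WT replicates 1 and 2, correlated best with its own number. WT replicate 3 correlated better with hnRNPL-deficient replicate 2 (0.305), and these 2 were the libraries with high *Xist*. The part of *Xist* status in these correlations was not tested.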
